A study of Arabidopsis thaliana with 22 samples.

Results

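The segment described here is a run of neighbouring genes on chromosome 5 of Arabidopsis thaliana, from locus AT5G16280 to locus AT5G19930. It holds 200 of the 13436 probe sets of the ATH1 array that name 1 gene alone and were matched to the RefSeq gene table. Each was counted as 1 gene, and all 200 were tested. It was chosen by the measured dark levels: among windows of 200 such genes it had the largest share of differences between the mutants phyABCDE and phyABDE in darkness, and dark differences between the mutants therefore serve below as a description only. The arrays were hybridised with RNA of whole seedlings, 4 d old, in the accession Ler. The quintuple mutant phyABCDE lacks phytochromes A to E. The quadruple mutant phyABDE keeps phytochrome C alone. Both mutants were sampled after growth in unbroken red light of 50 µmol per square metre and second (R50, 3 arrays each), after darkness (D, 3 arrays each) and after darkness that ended with 2 h of the same red light (DR2h, 2 arrays each). Wild type was sampled under R50 (2 arrays) and in darkness (4 arrays). The sources used here do not give the alleles, the number of lines per genotype or how the mutations were combined.

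Phytochromes are photoreceptors that red light converts to their active form. Active phytochromes enter the nucleus, where they act on transcription factors that hold dark-grown seedlings in their elongated, unexpanded form, and so change the transcripts of many genes across all chromosomes. Genes that stand side by side on a plant chromosome are mostly transcribed from promoters of their own, although tandem copies of a gene are common.

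Array medians lay between 40.21 and 44.88 intensity units, and arrays of a group correlated at 0.98 to 0.99 over probe sets. The 5 phytochrome genes have no probe set named in the annotation used here, so the targeted genes were not analysed. Transcripts of 6 seed-stage genes, matched by synonym, were measured beside the members. They are the oleosin OLEO3, the late embryogenesis proteins LEA4-5, AtLEA4-1 and LEA18, and AT2G44060 and AT2G46140. Their mean log2 level was 9.26 to 9.56 in the 5 red-lit phyABCDE arrays and 7.88 to 9.20 in the 5 red-lit phyABDE arrays, which did not overlap, and it was 6.76 to 8.34 in the 6 wild-type arrays. OLEO3 was at 4.12 and 4.42 in wild type under R50 and at 8.68 to 9.55 in the other 20 arrays. The 6 did not move together. Red-lit differences between the mutants were 0.88, 1.07 and 1.05 for AtLEA4-1, LEA18 and LEA4-5. For AT2G44060, AT2G46140 and OLEO3 they were 0.27, 0.13 and 0.03. AT2G44060 and AT2G46140 stayed at 9.70 to 10.55 and at 6.24 to 7.58 in all arrays, wild type included. None of the 6 passed the test between the mutants in the red-lit arrays. In RNA of whole seedlings, fewer cells of a type and less RNA per cell cannot be told apart.

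In darkness, where the segment was chosen, 16 of the 200 members (8%) differed between phyABCDE and phyABDE at a limma adjusted p under 0.05, against 2.33% of all 22746 probe sets tested. Of these, 5 were higher (1.35% of all probe sets) and 11 lower in phyABCDE (0.98% of all probe sets). The differences ran over a log2 range of -2.68 at AT5G16980 to 1.63 at AT5G16460. These counts describe the choice and nothing is read from them. The spread behind the dark calls is shared with all other arrays, and with the dark arrays of the mutants fitted alone 7 members were called (1.35% of all probe sets).

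The levels in the R50 and DR2h arrays did not enter the dark differences that chose the segment, although these arrays share in the estimate of the spread. Over these red-lit arrays, 34 of 200 members (17%) were called between phyABCDE and phyABDE. The share was 8.53% of all probe sets, and 7.62% of the single-gene probe sets on the numbered chromosomes. This count is not free of the choice, since 15 of the 16 members called in darkness are among the 34. Over all probe sets, 404 of 529 dark calls were red-lit calls too. A raised red-lit share thus follows in part from the choice, and how far was not tested. Of the 34, 15 were higher in phyABCDE (7.5%, against 4.9% of all probe sets) and 19 were lower (9.5%, against 3.63%). The median difference was -0.02 on the log2 scale both for the members and for all probe sets, while the median size of the difference was 0.14 for the members and 0.12 for all. Of the 34, 6 differed at least 2-fold, while 0.897% of all probe sets were called with such a difference. A further 16 of the 34 differed by less than 0.5 on the log2 scale. In 24 members (12%, against 4.84% of all probe sets) the call came with phyABCDE and phyABDE arrays that did not overlap, and phyABCDE was higher in 10 (2.92% of all probe sets) and lower in 14 of these (1.92%). The count of 34 rests in part on single DR2h arrays. Without replicate 2 or replicate 1 of phyABCDE DR2h it was 18 or 22, against 4.04% or 5.06% of all probe sets. Without replicate 2 of phyABDE DR2h it was 19, against 4.33%. The share of all probe sets called thus fell as well. With the seed-stage level as a covariate 26 members were called, against 6.99% of all probe sets.

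Under continuous red light alone 19 members were called (9.5%, against 3.97% of all probe sets). In phyABCDE 6 were higher and 13 lower, against 2.28% and 1.69% of all probe sets. After 2 h of red light the count was 5 (2.5%, against 1.2%), namely AT5G16980, AT5G16990, AT5G19240, AT5G19250 and MED31. All 34 members called over the red-lit arrays had the same sign in both light treatments, as did 99.9% of all probe sets called there. In darkness 33 had that sign too (97.1%, against 95.6% of all probe sets called). The genotype difference did not pass the test for a change between DR2h and R50 in any member with limma, although 5 members had an unadjusted p under 0.05, as did 552 of all probe sets. Of the 16 members called in darkness, 15 were called in the red-lit arrays, all with the same sign, which is 93.8% of the dark calls and 44.1% of the red-lit calls. Over all probe sets 404 were shared, or 76.4% of 529 dark calls and 20.8% of 1941 red-lit calls. The exception was AT5G16460, at 1.63 ± 0.29 in darkness (log2 difference ± SE) and 0.65 ± 0.23 over the red-lit arrays (adjusted p = 0.090). Dark and red-lit differences correlated at r = 0.84 across the 200 members and at r = 0.74 across all 22746 probe sets, as a description, since the members were chosen on the dark differences.

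The level of the 16 dark-called members was set beside wild type array by array. Each gene's deviation from the dark wild-type mean was turned by the sign of its dark difference between the mutants, and the 16 were averaged. The choice of the 16, their signs and the baseline thus come from the dark arrays. This level was 0.76 to 0.88 in the 5 red-lit phyABCDE arrays, -0.13 to 0.06 in the 5 red-lit phyABDE arrays, and -0.11 and -0.07 in the R50 arrays of wild type. The dark arrays, which set the signs, gave 0.86 to 1.03 in phyABCDE, -0.04 to -0.01 in phyABDE and -0.06 to 0.09 in wild type. In the R50 and DR2h arrays, which set neither signs nor baseline, phyABCDE stood apart from phyABDE, and under R50 from wild type. The R50 and DR2h arrays of phyABDE and the R50 arrays of wild type lay together around 0. A red-lit split of the mutants follows in part from the choice of the 16. Over all probe sets, 404 of 529 dark calls were called in the red-lit arrays with the same sign. This level was not computed for dark-called probe sets elsewhere, so nothing particular to the segment is read from it. In darkness the split of the mutants and the wild-type mean at 0 follow from how the level was built. An average over the 16 does not show where single members depart from wild type.

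**Figure D1:**
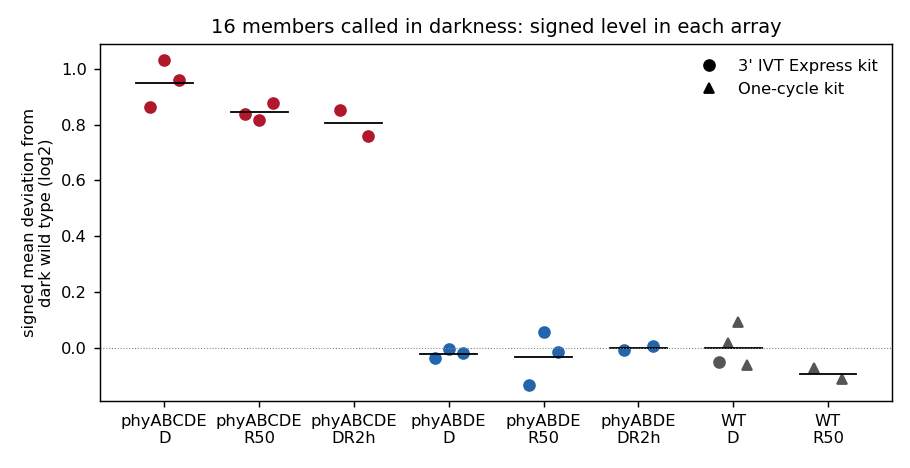
Signed mean deviation from dark wild type (log2) of the 16 members called in darkness, 1 point per array, with groups along the x axis, the group mean as a line and the labelling kit as the marker shape. The 5 red-lit phyABCDE arrays sit at 0.76 to 0.88, and all phyABDE and wild-type arrays lie between -0.13 and 0.09.

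AT5G16980, the member with the largest difference, and its neighbour AT5G16990 went in opposite directions. AT5G16980 had log2 intensities of 3.36, 3.29 and 3.02 under R50 and 3.72 and 3.28 at DR2h in phyABCDE, against 5.82, 5.97 and 5.41 under R50 and 7.08 and 6.01 at DR2h in phyABDE. The gene's level in wild type was 6.94 and 6.32 under R50 and 5.56, 5.34, 5.48 and 4.70 in darkness. The phyABCDE arrays were all below every array of phyABDE and wild type. The red-lit difference was -2.77 ± 0.21 on the log2 scale (limma adjusted p = 8.7e-08), which is 6.84-fold lower in phyABCDE. Its phyABCDE levels are among the dim ones of the array, and with an offset of 16 intensity units the difference was -1.73. Dark phyABCDE arrays were at 3.51, 3.08 and 3.13.

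AT5G16990 was at 7.88, 7.82 and 7.71 under R50 and 8.02 and 7.98 at DR2h in phyABCDE, against 6.77, 6.54 and 6.58 under R50 and 6.12 and 6.37 at DR2h in phyABDE. Wild type was at 7.16 and 7.06 under R50 and at 6.40 to 6.60 in darkness, below every phyABCDE array. The red-lit difference was 1.46 ± 0.10 (adjusted p = 1.8e-08), or 2.76-fold higher in phyABCDE. AER, the gene on the other side of AT5G16980, encodes an alkenal reductase that detoxifies reactive carbonyls. It was at 6.84 to 7.28 in the 5 red-lit phyABCDE arrays (median 7.14) and at 7.20 to 8.13 in the 5 of phyABDE (median 7.57). These ranges overlap slightly, and the difference was -0.56 ± 0.13 (adjusted p = 0.011). The next measured gene, AT5G16960, differed by -0.35 ± 0.14 and was not called (adjusted p = 0.13). Whether probes of these neighbours also capture each other's transcripts was not tested.

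AT5G19240 and AT5G19250 are neighbours as well, and both were lower in phyABCDE. AT5G19240 was at 4.74, 4.21 and 4.19 under R50 and 4.51 and 4.90 at DR2h in phyABCDE, against 6.38, 5.49 and 6.18 under R50 and 5.94 and 6.56 at DR2h in phyABDE. In wild type it was at 7.59 and 7.78 under R50 and at 5.56 to 6.95 in darkness. No phyABCDE array reached the lowest array of the other genotypes. The difference between the mutants was -1.59 ± 0.20 (adjusted p = 4.4e-05), 3.01-fold lower in phyABCDE. AT5G19250 was at 7.26 to 7.73 in the red-lit phyABCDE arrays and at 8.00 to 8.73 in those of phyABDE, with 9.18 and 9.30 in R50 wild type. Its difference was -1.0 ± 0.15 (adjusted p = 2.7e-04), 2.01-fold lower in phyABCDE.

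Another run of called neighbours comprised AT5G17760, AT5G17780 and AT5G17820, which again did not share a direction. AT5G17760 was at 6.33, 6.33 and 6.73 under R50 and 6.26 and 6.38 at DR2h in phyABCDE, against 5.71, 5.71 and 4.94 under R50 and 4.97 and 5.33 at DR2h in phyABDE. The arrays do not overlap, and the difference was 1.09 ± 0.19 (adjusted p = 0.0012). In darkness the arrays of this gene did overlap, at 5.36 to 6.12 in phyABCDE and 4.76 to 5.53 in phyABDE. AT5G17780 fell by 0.75 on the log2 scale in phyABCDE (SE 0.10, adjusted p = 8.0e-05), at 3.37 to 3.66 against 3.80 to 4.82 in phyABDE. For AT5G17820 the red-lit arrays overlapped, at 6.37 to 7.71 in phyABCDE and 7.56 to 8.53 in phyABDE, with a difference of -1.01 ± 0.29 (adjusted p = 0.034).

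**Figure D2:**
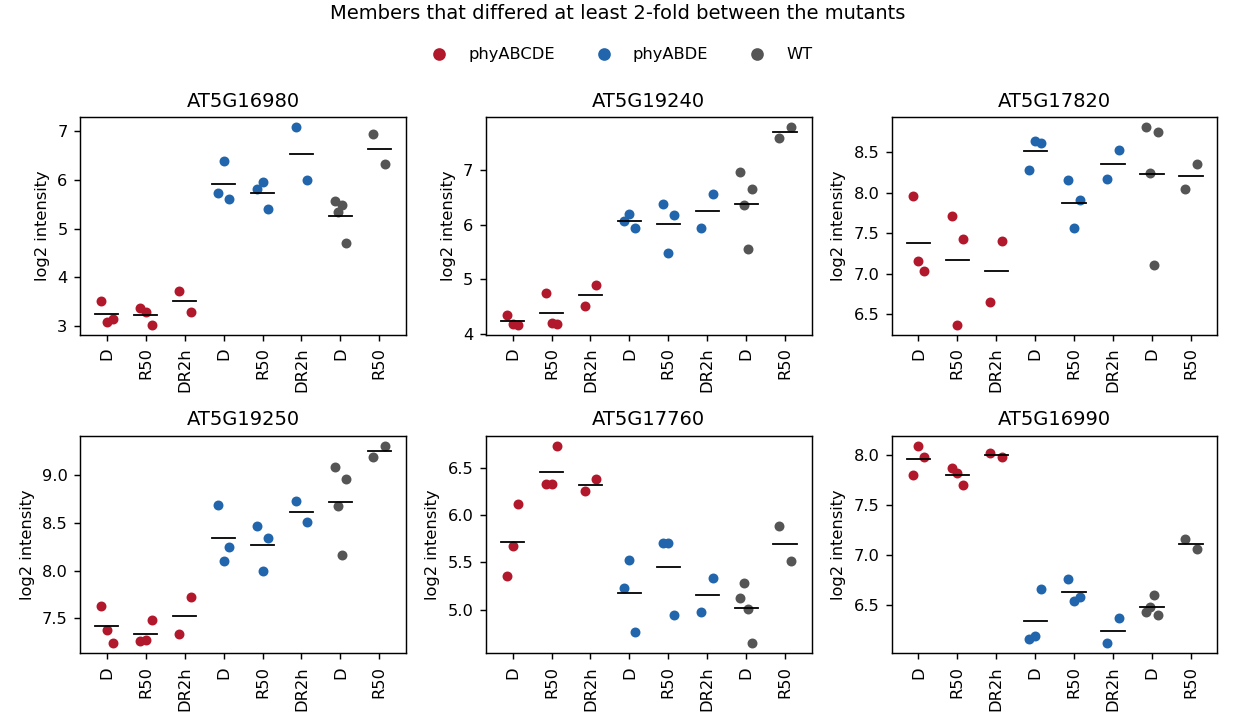
Log2 intensity of each array (y axis) for the 6 members that differed at least 2-fold between the mutants over the red-lit arrays, with treatments along the x axis, genotypes by colour and group means as lines. In AT5G16980, AT5G19240 and AT5G19250 all phyABCDE points lie under the other genotypes, in AT5G16990 all lie above them, and in AT5G17820 the genotypes overlap.

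Besides these, 3 members fell by more than 0.75 on the log2 scale in phyABCDE without overlap. AT5G18470 was at 4.50 to 4.96 in red-lit phyABCDE arrays (median 4.80) and at 5.13 to 6.08 in those of phyABDE (median 5.75), a difference of -0.90 ± 0.15 (adjusted p = 0.0011). AT5G18840 was at 3.10 to 3.68 in phyABCDE and 3.95 to 4.45 in phyABDE (adjusted p = 7.2e-04). AT5G19110 was at 5.19 to 5.61 in phyABCDE and 5.89 to 6.48 in phyABDE (adjusted p = 0.0058). Smaller falls were called in AT5G18340 (-0.63), AT5G18390 (-0.58), AT5G17340 (-0.51) and AT5G19750 (-0.49). Dim members shrank with an offset of 16 intensity units, although each stayed called: the differences were then -0.38 for AT5G18840 and AT5G17780, -0.27 for AT5G18340 and -0.18 for AT5G17340.

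Among the members that were higher in phyABCDE, those without overlap other than AT5G16990 and AT5G17760 differed by 0.31 to 0.59 on the log2 scale. AT5G17510 was at 4.44 to 4.76 in red-lit phyABCDE arrays and 3.69 to 4.35 in those of phyABDE, and AT5G17160 at 6.70 to 7.12 in phyABCDE and 6.10 to 6.49 in phyABDE. The differences were 0.59 ± 0.13 (adjusted p = 0.0064) and 0.56 ± 0.13 (adjusted p = 0.011). AT5G16680, AT5G18190, AT5G18360, AT5G18770 and AT5G19350 rose by 0.31 to 0.46. With the offset of 16 units, the dim members AT5G17510 and AT5G18360 differed by 0.33 and 0.14. AT5G19480, named after its values were seen, had a larger difference of 0.84 ± 0.23 (adjusted p = 0.025), but with overlapping arrays at 5.81 to 7.07 in phyABCDE and 5.10 to 5.91 in phyABDE.

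Only 20 members carry a gene symbol in the tables used, and the roles of the others are not given here. Of the 20, 3 were called between the mutants in the red-lit arrays, 1 higher and 2 lower, with a median difference of -0.01. MED31 encodes a subunit of Mediator, the complex that links transcription factors to RNA polymerase II. It was at 6.60, 6.53 and 6.80 under R50 and 6.47 and 6.72 at DR2h in phyABCDE, against 6.40, 6.25 and 6.35 under R50 and 6.11 and 5.95 at DR2h in phyABDE. The phyABCDE arrays were the higher ones without overlap, and the difference was 0.44 ± 0.09 (adjusted p = 0.0034). PIR121, a subunit of the WAVE complex that promotes actin filament branching, was at 6.46 to 7.03 in red-lit phyABCDE arrays and 7.20 to 7.45 in those of phyABDE. It fell by 0.56 on the log2 scale (SE 0.11, adjusted p = 0.0036). AER was the other one that was lower. In darkness, PIR121 was at 6.89 to 7.08 in phyABCDE and 7.09 to 7.31 in phyABDE, and the difference of -0.20 was not called.

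The remaining symbols did not pass the test. Among genes that act on DNA and chromatin, RAD4, whose yeast counterpart works in nucleotide excision repair, differed by 0.31 (adjusted p = 0.10) although its arrays did not overlap. The chromatin remodelers CHR17 and CHR23 differed by 0.07 and 0.13, and TERT, the catalytic subunit of telomerase, by 0.03. The transcription factors BBM, which acts in embryogenesis, and PUCHI, which acts in lateral root formation, differed by -0.11 and -0.05 at low levels. CSA1, an immune receptor first named for a constitutive shade avoidance mutant, stayed between 2.86 and 3.36 in all 22 arrays and differed by -0.02. CSLD2, a cellulose synthase-like protein of root hair growth, differed by 0.15, and S1P, a protease of the secretory pathway, by -0.20.

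**Figure D3:**
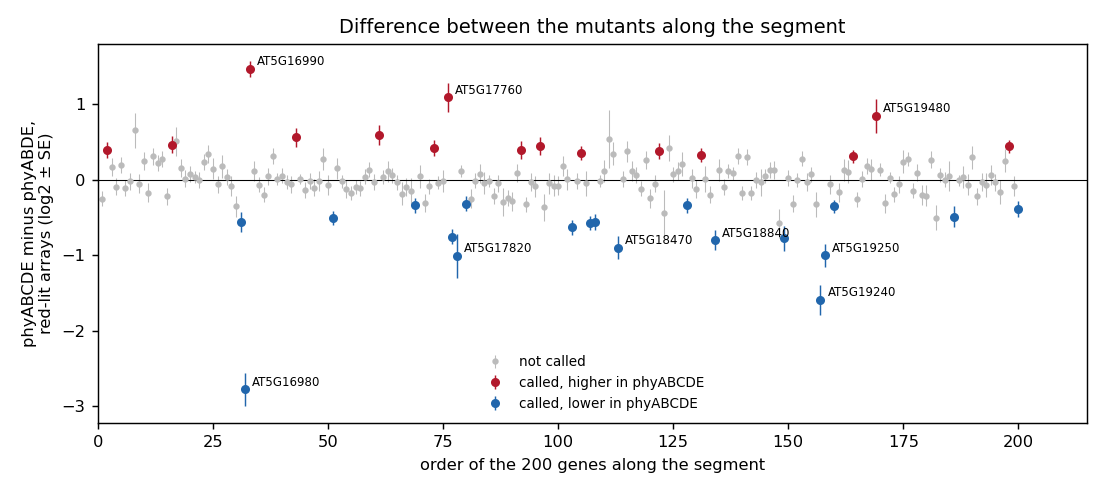
Red-lit difference between phyABCDE and phyABDE (y axis, log2 ± SE) of all 200 members in their order along the segment (x axis), with called members in colour. The 15 higher and 19 lower members are interspersed, and AT5G16980 (-2.77) and AT5G16990 (1.46) stand next to each other.

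Called members were spread over the segment. Each of its 10 stretches of 20 genes held 2 to 7 members called in the red-lit arrays, with the most, 7, from AT5G17510 to AT5G17840. Of the 34, 10 lay next to another called member in the measured order. With 17% of members called, some neighbours are both called in any order. The number for a random order was not computed, so no clustering is read from this count. The 34 were brighter than the others, with a median mean log2 intensity of 6.56 (2.85 to 9.74) against 5.48 (2.35 to 11.65) in the 166 other members. Of the 34, 8 had a mean under 5, as had 75 of the 166.

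Genes on both sides of each end of the window were compared. Their dark differences are a description, since dark differences set the ends. At the first end, the differences in darkness were 0.04, 0.32 and 0.25 for the innermost measured genes AT5G16280, AT5G16300 and AT5G16380, and 0.43, 0.14 and -0.13 for AT5G16230, AT5G16240 and AT5G16250 outside. At the last end they were 0.48, -0.22 and -0.53 for MED31, AT5G19920 and AT5G19930 inside, and -0.37, 0.36 and -0.06 for AT5G19940, AT5G19950 and AT5G19960 outside. Of these genes, MED31 and AT5G19930 were called in darkness. Over the red-lit arrays AT5G16300, MED31 and AT5G19930 were called, at 0.39, 0.44 and -0.39 (limma adjusted p = 0.027, 0.0034 and 0.028). The others inside were not called. Those outside, at -0.31 to 0.36, were not called either (adjusted p = 0.10 to 0.25). The next 200 genes beyond the last end had 15% called in the red-lit arrays and 5% in darkness, and the 200 before the first end 8.5% and 2.5%. The 100 genes in the middle of the segment had 19% called in the red-lit arrays, and the 400 genes around the same centre 15%.

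Windows of the same size around the phytochrome genes give a scale for these shares. All windows hold single-gene probe sets only. Of the 13367 on the numbered chromosomes, 7.62% were called in the red-lit arrays and 2.15% in darkness. The window around PHYC, from AT5G29050 to AT5G38210 on the same chromosome, had 10% called in the red-lit arrays and 5% in darkness. Around PHYA it was 3.5% and 1%, around PHYB 6% and 1.5%, around PHYD 9% and 1.5%, and around PHYE 16% and 5%. The windows of PHYD and PHYE overlap each other. Of 12372 windows of 200 neighbouring genes, the median had 13 called in the red-lit arrays (6.5%), and the highest, AT4G17590 to AT4G21870, had 38 (19%). A count of 34 or more occurred in 218 overlapping windows (1.76%), 84 of which share genes with the segment. The red-lit share of the segment was thus among the higher ones and not the highest. It includes 15 of the 16 members called in darkness, where the segment was chosen.

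**Figure D4:**
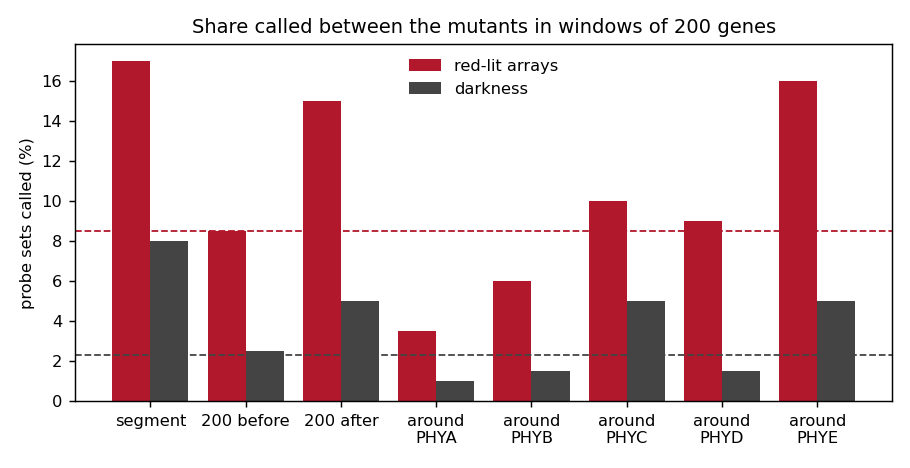
Percent of probe sets called between phyABCDE and phyABDE (y axis) in 8 windows of 200 neighbouring genes (x axis), over the red-lit arrays and in darkness. Dashed lines mark the shares of all probe sets tested (8.53% and 2.33%). The single-gene probe sets that make up the windows had 7.62% and 2.15%. The segment was chosen for its dark bar of 8%; its red-lit share is 17%, beside 15% in the next 200 genes and 16% around PHYE.

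Wild type was nearer to phyABDE than to phyABCDE in 26 of the 34 red-lit calls under R50 (76.5%, against 60.1% of all probe sets called). In darkness it was nearer in 22 of 34 (64.7%, against 54.4%), as a description, since the mutants' dark arrays chose the segment. The comparisons with wild type share its arrays. Over the 34 called members, the median size of the difference from wild type under R50 was 0.55 for phyABCDE and 0.39 for phyABDE, and in darkness 0.29 and 0.20. Of all 200 members, 29 differed between phyABCDE and wild type under R50 (14.5%, against 12.6% of all probe sets), and 22 between phyABDE and wild type (11%, against 9.96%). In darkness, with the mutants' arrays that chose the segment, the counts were 14 (7%, against 3.6%) and 1 (0.5%, against 0.805%). These values are set through 1 wild-type array, dark replicate 1, because the series text gives the other 5 wild-type arrays another labelling kit and an earlier study as their source. Without that array, 60 and 47 members were called in darkness, against 31% and 27.4% of all probe sets. Under R50 it was 69 and 63, against 32.6% and 32.4%. Kit and genotype cannot be told apart there.

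The wild-type arrays place single members on one side or the other. The differences from wild type given next are adjusted by the kit term, which is set through dark replicate 1 of wild type. The levels of single arrays are not adjusted, so the differences do not equal those between the printed levels. For AT5G16980 the difference from wild type under R50 was -3.79 ± 0.49 in phyABCDE (limma adjusted p = 2.5e-05) and -1.29 ± 0.49 in phyABDE (adjusted p = 0.12). AT5G16990 differed from wild type under R50 by 0.76 ± 0.23 in phyABCDE (adjusted p = 0.037) and by -0.41 ± 0.23 in phyABDE (adjusted p = 0.34). AT5G19240 was lower than wild type under R50 in both mutants, by -4.07 ± 0.45 in phyABCDE (adjusted p = 4.8e-06) and by -2.43 ± 0.45 in phyABDE (adjusted p = 0.0014). A different order was seen in AT5G19750, which was at 7.17 to 7.86 in dark phyABCDE arrays and 7.59 to 7.80 in dark phyABDE arrays, against 6.17 to 7.15 in dark wild type, and in AT5G17650, which was at 6.41 to 6.79 in dark phyABCDE, at 7.0 to 7.37 in dark phyABDE and at 6.28 to 6.74 in dark wild type. AT5G17650 was named after its values were seen.

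**Figure D5:**
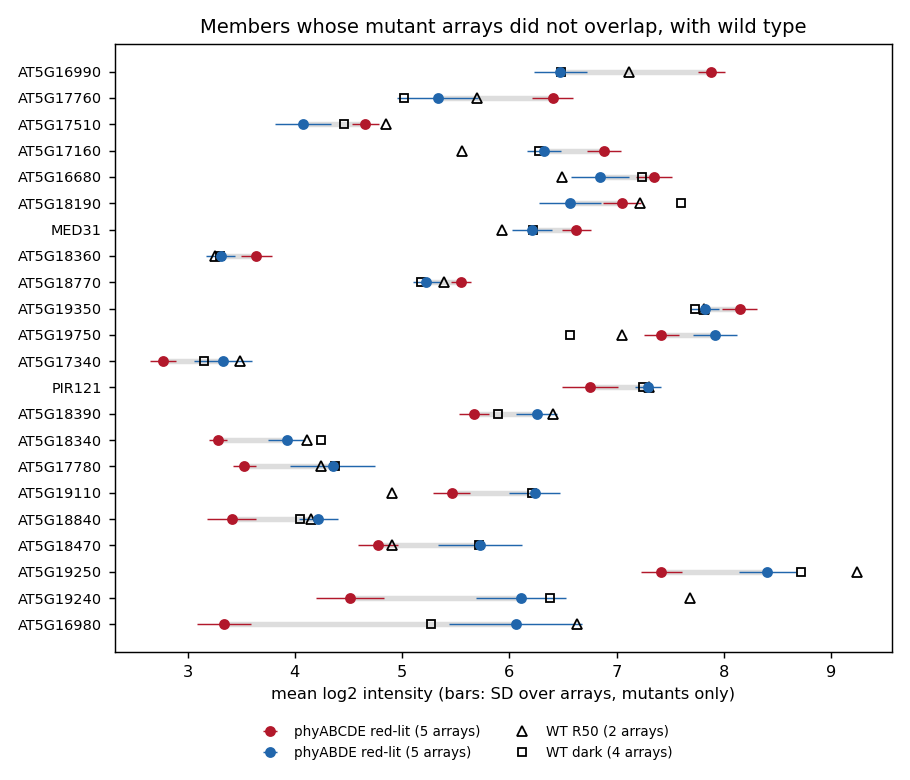
Mean log2 intensity (x axis) of the 22 named members (y axis) over the 5 red-lit arrays of phyABCDE and of phyABDE, with bars for the SD, beside the wild-type means under R50 and in darkness. In AT5G16990 and AT5G16980 the phyABCDE mean lies outside the other means, and in AT5G19750 both mutants lie above wild type.

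Continuous red light changed members in wild type at about the share of all probe sets, and none was called in the mutants in the main fit. The change from darkness to DR2h was not tested. In wild type, 57 of 200 members differed between R50 and darkness (28.5%, against 27.5% of all probe sets), 26 higher and 31 lower under R50 (13.7% and 13.8% of all probe sets). With the replicate number as a block the count was 33 (16.3% of all probe sets). In phyABCDE and phyABDE no member was called by limma, against 0.00879% and 0.145% of all probe sets, while 13 and 21 members had an unadjusted p under 0.05, as had 1291 and 2635 of all probe sets. The difference of the R50 response between the mutants was called in no probe set, and 8 members had an unadjusted p under 0.05, as had 899 of all probe sets.

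TRXF2, a chloroplast thioredoxin that activates enzymes of carbon fixation in the light, was at 9.33 and 9.38 in wild type under R50 and at 7.12 to 7.56 in darkness, a difference of 2.04 ± 0.16 (adjusted p = 1.5e-08). In phyABCDE it was at 7.53, 7.98 and 8.08 under R50 and 7.62, 7.86 and 7.68 in darkness. The phyABDE values were 7.97, 8.22 and 8.21 under R50 and 7.99, 7.79 and 7.86 in darkness, so neither mutant reached the wild-type R50 level. UGT78D2, a flavonoid 3-O-glucosyltransferase of the anthocyanin pathway, was at 7.75 and 7.73 in wild type under R50 and at 5.50 to 5.92 in darkness, a difference of 2.12 ± 0.16 (adjusted p = 8.1e-09). Its red-lit arrays ran over 6.33 to 6.43 in phyABCDE and 5.99 to 6.64 in phyABDE, and the mutants differed by 0.04. Between the mutants TRXF2 differed by -0.09, and neither gene passed the test between them (adjusted p = 0.72 for TRXF2 and 0.88 for UGT78D2).

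Of the 34 members called between the mutants, 17 (50.0%) responded to R50 in wild type, 7 upward and 10 downward, against 40 of the 166 others (24.1%). Over all probe sets the share was 27.5%, and over all those called between the mutants 39.4%. Called members were brighter, and at a mean log2 of 5 or more the shares were 16 of 26 called members (61.5%), 31 of 91 others (34.1%) and 43.4% of all called probe sets. The part of brightness beyond this was not tested. The rises with the largest size were in AER (2.05 ± 0.18), AT5G19240 (1.49 ± 0.28) and AT5G16980 (1.46 ± 0.30). The largest falls were in AT5G19110 (-1.37 ± 0.23), AT5G17700 (-1.23 ± 0.15) and AT5G18470 (-0.85 ± 0.22). AER was at 8.91 and 8.35 in wild type under R50, above every mutant array. AT5G17700 was at 5.37 and 5.84 in wild type under R50, below its red-lit arrays at 6.75 to 7.11 in phyABCDE and 6.12 to 7.02 in phyABDE.

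Other members stood away from wild type with no call between the mutants, and those given next were named after their values were seen. AT5G18430 was at 3.34 to 3.95 in phyABCDE and 3.60 to 4.23 in phyABDE under R50, against 6.50 and 6.37 in wild type. AT5G19100 was at 8.62 to 9.13 in phyABCDE and 9.45 to 9.55 in phyABDE under R50, against 5.57 and 5.44 in wild type, where its dark level was 8.30 to 9.46. AT5G18450 was at 7.02 to 7.65 in dark phyABCDE and 4.85 to 7.24 in dark phyABDE, against 3.36 to 4.19 in dark wild type, where phyABDE did not pass the test (adjusted p = 0.27), and replicate 1 of phyABDE, the array with the lowest seed-stage level among dark phyABDE, gave the lowest phyABDE value. The part of the seed-stage level in this difference was not tested.

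Functional lists drawn up for the segment had 31 measured members, 11 of them with a symbol, and 3 were higher and 6 lower in phyABCDE over the red-lit arrays, with a median difference of -0.09. Of all probe sets, 4.9% were higher and 3.63% lower, and the lists are too short to set against these shares one by one. The list around AER, with 4 measured genes that lie side by side, had 1 higher and 2 lower. The list around TRXF2 had 6 members with 1 lower and a median of -0.24, and the list around UGT78D2 had 3 with none called. The list around MED31, CHR17, BBM and PUCHI had 6 with 1 higher. The list around PIR121 and CSLD2 had 6 with 2 lower, the list around CSA1 had 5 with 1 higher, and the last list had 1 member, AT5G18340, which was lower.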

How the data were processed

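Each array gives every probe set 1 deposited intensity on a linear scale. RMA, GCOS and limma stand in the submitters' processing notes with neither version nor role, and other upstream steps are not given in the sources used here. Log2 of the deposited intensity was analysed without further normalization. The 64 controls among 22810 probe sets were dropped, and no filter on low values was used. Annotation of the platform from GEO ties 13513 probe sets to 1 gene, and 13436 matched the RefSeq table of TAIR10.1, used for names and neighbour order only. Where a gene has several such probe sets, none was dropped, and each was counted as a gene.

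A model with 8 group means and a labelling-kit term was fitted over all 22 arrays with limma 3.58.1 in R 4.3.3 (13 residual degrees of freedom), with Benjamini-Hochberg adjustment over 22746 probe sets and a threshold of 0.05. The red-lit difference averages the R50 and DR2h differences. One estimate of spread is shared by all arrays, dark ones included. Per the series text 5 wild-type arrays (both under R50, and dark replicates 2 to 4) used the One-cycle kit and 17 the Express kit, while the labels of single samples name the Express kit for all; the series text was followed. The titles call replicates biological, and their number limits the precision, with 0.24 as the median 95% half-width for red-lit log2 differences.

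Replicate numbers did not pair the mutants within D and R50, where same-numbered deviations correlated at -0.16 to 0.06. Within DR2h the correlation was 0.27. With 2 arrays per mutant both numbers give the same value, so pairing at DR2h could not be judged. Within a mutant, D and R50 of the same number correlated at 0.11 to 0.48, so numbers may pair the light responses. There the block left the count of members at 0 in both mutants. For wild type the pairing was not checked. Scripts were tested on simulated data. Plots were made with Python 3.11.15 and matplotlib 3.10.9.

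Members and lists were chosen with earlier results of these data known. Named are up to 12 rises and 12 falls among called members without overlap, the genes at the window's ends, list members and the 3 largest wild-type responses each way among called members. Of 92 planned list genes, 31 were measured. The 6 seed-stage genes were found through RefSeq synonyms.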

Additional observations from a re-analysis of the deposited data

Results flagged for a closer look

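Among 42 members checked for a lone array in the 4 dark wild-type arrays, 3 had 1 array whose gap to the nearest of the others was large for the group's whole range by Dixon's 95% critical value, and about 1 in 20 groups is marked so by chance. AT5G18190 was at 6.57 in dark wild type replicate 1, the array with the Express kit, and at 7.88 to 7.99 in the other dark wild-type arrays, which had the One-cycle kit. AT5G19110 was at 6.82 in dark wild type replicate 4, against 5.95 to 6.06 in the others. S1P was at 6.92 in dark wild type replicate 3, against 6.36 to 6.45 in the others.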

How the results depend on the processing

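The red-lit count of 34 members called between phyABCDE and phyABDE was 6 with a 2-fold minimum (0.897% of all probe sets). It was 26 to 48 under the other alternatives that do not leave out single arrays. The share of all probe sets called was 6.58% to 13.7% there. Of the 22 named members without overlap, 15 kept their call, 4 higher and 11 lower, under each alternative run on them other than the 2-fold minimum. Of these 15, AT5G17510, AT5G16980, AT5G18840, AT5G17780, AT5G18340 and AT5G17340 have a mean log2 under 5 and so no value in the filter on dim probe sets. No direction reversed. The others, AT5G17160, AT5G16680, AT5G18190, AT5G18360, AT5G18770, AT5G19350 and AT5G19750, lost it under at least 1. Next, 1 array was left out at a time, and the ranges are for fits that kept at least 2 arrays per group. Brackets give the range of the share of all probe sets called. The count lay between 26 and 36 for the red-lit difference (5.76% to 9.47%) and 12 and 21 under R50 (1.65% to 4.5%). It lay between 4 and 7 at DR2h (1.03% to 1.44%) and 9 and 16 in darkness (1.08% to 2.77%). Without a DR2h array, which leaves 1 in its group, the red-lit and DR2h counts were lower still. Against wild type under R50, the count lay between 23 and 69 for phyABCDE (11.4% to 32.6%) and 17 and 63 for phyABDE (8.87% to 32.4%). In darkness it lay between 9 and 60 for phyABCDE (2.33% to 31%) and 1 and 47 for phyABDE (0.431% to 27.4%). The highest counts against wild type all came without dark wild-type replicate 1, with 27.4% to 32.6% of all probe sets called. The wild-type light response had 55 to 60 (24.9% to 27.8%) in these fits, and fewer where only 1 wild-type R50 array was left. Both mutant responses and both interaction tests had 0 throughout.

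Shares of all probe sets called stand in brackets below. The 2-fold minimum left 6 members between the mutants under R50 (0.919%) and 4 in darkness (0.879%). It left 18 and 7 for phyABCDE against wild type under R50 (9.25%) and in darkness (2.31%), and 20 for the wild-type light response (9.7%). Without the kit term, 63 (29.7%) and 56 (29.5%) members differed from wild type under R50 in phyABCDE and phyABDE. In darkness 46 (24.5%) and 32 (19.5%) did. Fitting the compared arrays alone gave 12 between the mutants under R50 (2.7%) and 7 in darkness (1.35%). Against wild type it gave 55 (29.3%) and 59 (31.6%) under R50, and 9 (1.86%) for dark phyABCDE. Restricting to a mean log2 of 5 or more gave 10 (3.42%) between the mutants in darkness. It gave 8 (5.17%) and 0 (1.17%) for phyABCDE and phyABDE against dark wild type. Array weights gave 18 (4.39%) at DR2h and 1 (0.528%) for the phyABDE light response. The seed-stage covariate gave 8 (0.994%) between the mutants in darkness and 3 (0.453%) for phyABCDE against dark wild type. Without both replicate 1 arrays of phyABDE, 10 (1.19%) were called between the mutants in darkness and 2 (1.5%) for phyABDE against dark wild type. The causes of these shifts were not tested.

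With the replicate number as a block, the red-lit count stayed at 34, of which 32 were the same members. The block left 5 and 4 members for phyABCDE and phyABDE against wild type under R50 (2.49% and 2% of all probe sets). In darkness it left 0 and 0 (0.308% and 0.233%). For the wild-type light response it left 33 (16.3%), against 57 without it (27.5%). The numbers did not pair the mutants within D and R50. Pairing at DR2h could not be judged, and pairing with wild type was not checked.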
